A study of Homo sapiens with 6 samples.

Results

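The 6 genes that encode type IV collagen, *COL4A1* to *COL4A6*, were followed in high-throughput RNA-Seq data of TC28a2 cells, an immortalized human chondrocyte line. They were chosen by family membership and taken as the 3 neighbouring pairs that the genome holds, *COL4A1* with *COL4A2*, *COL4A3* with *COL4A4*, and *COL4A5* with *COL4A6*. They are 6 of the 60623 genes in the deposited count table, and all 6 were found there. The cells had been treated with 2 μM mocetinostat, an inhibitor of histone deacetylases, or with the solvent DMSO, and RNA was taken after 24 hours. Each condition has 3 samples from independent experiments. All samples come from this 1 immortalized line in culture, so the comparison holds for these cells and not for cartilage. Of the 6 genes, 5 passed the expression filter and were tested, and *COL4A3* did not pass.

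Type IV collagen is the network-forming collagen of basement membranes, the thin matrix sheets under epithelia, around blood vessels, and around muscle and fat cells. Its chains assemble in threes, and each gene pair supplies chains that are used together. The chains of *COL4A1* and *COL4A2* form the network found in nearly all basement membranes, those of *COL4A3*, *COL4A4*, and *COL4A5* form the network of the kidney glomerulus, lung, and inner ear, and those of *COL4A5* and *COL4A6* form that of skin and smooth muscle. Chondrocytes do not rest on a basement membrane, but type IV collagen is known in the pericellular matrix of cartilage. The partners of a pair are transcribed away from each other from a shared region, so that the same stretch of DNA serves as the promoter of both.

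The RefSeq starts of *COL4A1* and *COL4A2* lie 127 bases apart on chromosome 13, those of *COL4A3* and *COL4A4* lie 419 bases apart on chromosome 2, and those of *COL4A5* and *COL4A6* lie 380 bases apart on chromosome X. *COL4A6* has a second annotated start, 1416 bases from that of *COL4A5*. The promoter windows below, each of 300 bases from 250 bases before a start to 50 bases after it, are RefSeq sequences of GRCh38.p14 and are shown because they are the stretches that the partners share or divide. The window of *COL4A2* is on the plus strand at chr13:110307034-110307333 and also contains the start of *COL4A1* at position 110307157. The window of *COL4A4* is on the minus strand at chr2:227164156-227164455, that of *COL4A3* on the plus strand at chr2:227164374-227164673, and that of *COL4A5* on the plus strand at chrX:108439588-108439887. Capitals mark every match, on either strand, to 6 short motifs, namely CCAAT (the CCAAT box), GGGCGG (the GC box bound by SP1), CACCC (a box bound by Krüppel-like factors), CCCTCC (a pyrimidine-rich box), TATAAA (the TATA box), and TGACTCA (the AP-1 site).
COL4A2: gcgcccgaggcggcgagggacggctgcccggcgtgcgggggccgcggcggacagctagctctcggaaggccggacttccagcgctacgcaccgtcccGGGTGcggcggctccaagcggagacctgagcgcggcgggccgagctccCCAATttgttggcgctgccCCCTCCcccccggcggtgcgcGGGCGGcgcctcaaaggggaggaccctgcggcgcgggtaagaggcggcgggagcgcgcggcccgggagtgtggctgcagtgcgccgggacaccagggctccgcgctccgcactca
COL4A4: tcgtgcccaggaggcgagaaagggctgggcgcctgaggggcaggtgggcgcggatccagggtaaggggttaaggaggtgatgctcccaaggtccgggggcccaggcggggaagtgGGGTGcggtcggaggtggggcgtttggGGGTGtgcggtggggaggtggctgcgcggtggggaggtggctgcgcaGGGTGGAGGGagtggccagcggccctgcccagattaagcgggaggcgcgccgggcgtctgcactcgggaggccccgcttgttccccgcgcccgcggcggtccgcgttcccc
COL4A3: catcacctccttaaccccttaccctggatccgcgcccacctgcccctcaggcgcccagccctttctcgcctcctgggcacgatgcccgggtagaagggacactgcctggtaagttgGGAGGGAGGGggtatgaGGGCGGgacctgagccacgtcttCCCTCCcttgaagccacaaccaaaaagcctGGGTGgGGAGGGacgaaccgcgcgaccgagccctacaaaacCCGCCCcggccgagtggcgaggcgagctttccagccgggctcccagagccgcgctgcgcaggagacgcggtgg
COL4A5: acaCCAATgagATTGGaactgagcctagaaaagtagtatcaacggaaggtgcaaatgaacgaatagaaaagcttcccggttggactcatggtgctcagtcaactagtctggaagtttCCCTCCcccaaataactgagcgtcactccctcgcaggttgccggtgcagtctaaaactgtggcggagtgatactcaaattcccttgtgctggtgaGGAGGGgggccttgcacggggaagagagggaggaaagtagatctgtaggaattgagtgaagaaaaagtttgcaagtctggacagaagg

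The *COL4A1* and *COL4A2* windows overlap and each held 1 CCAAT match, which is the same site, and those of *COL4A3* and *COL4A4* held none. The *COL4A6* window at the start nearer to *COL4A5* held 3 CCAAT matches, which include the 2 of the *COL4A5* window. That of the other *COL4A6* start held none. Among all 35116 RefSeq promoter windows of the same length, CCAAT was present in 34.6%, GGGCGG in 45.0%, CACCC in 59.9%, CCCTCC in 45.7%, TATAAA in 11.5%, and TGACTCA in 4.95%. The *COL4A4* window held 3 CACCC matches and 1 CCCTCC match, of which 1 CACCC match shares a base with the CCCTCC match. The *COL4A3* window held 2 GGGCGG, 1 CACCC, and 4 CCCTCC matches, of which the first 2 CCCTCC matches overlap. The *COL4A5* window held 2 CCAAT and 2 CCCTCC matches. No TATAAA or TGACTCA was found in the 7 windows of the 6 genes. The base composition separated the pairs: the GC content was 76.7% for *COL4A1* and 77.7% for *COL4A2*, 67.7% for *COL4A3* and 74.0% for *COL4A4*, 49.3% for *COL4A5*, and 43.7% and 50% for the 2 starts of *COL4A6*, against a median of 58.7% over all windows (quartiles 47.0% and 68.0%). The ratio of observed to predicted CpG dinucleotides was 1.00 for *COL4A2* and 1.02 for *COL4A1*, 0.701 for *COL4A3* and 0.789 for *COL4A4*, and between 0.269 and 0.491 for the *COL4A5* and *COL4A6* windows, against a median of 0.579. These matches describe letters in a window, and binding was not measured.

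The 3 pairs differed in level and in their response to mocetinostat. *COL4A1* and *COL4A2* were among the most abundant RNAs of the cells and did not pass the test. *COL4A5* and *COL4A6* rose less than 2-fold, and *COL4A4* rose from 1 read in all DMSO-treated samples together to 39 to 102 reads per mocetinostat-treated sample. The log2 fold change (log2FC) of each gene and its standard error (SE) were fitted in edgeR by quasi-likelihood over the 13966 genes that passed the filter, with Benjamini-Hochberg adjustment of p. Upregulated genes (URGs) and downregulated genes (DRGs) needed an adjusted p below 0.05 together with a log2FC beyond 1 or -1. Among all genes tested, 20.2% were URGs and 8.18% were DRGs, 32.9% had an adjusted p under 0.05 with a higher level after mocetinostat treatment, and 31.4% had one with a lower level. Of the 5 type IV collagen genes tested, 1 was a URG, 3 had an adjusted p under 0.05 and a higher level, and none had one with a lower level. Their median log2FC was 0.68, beside -0.00 over all genes tested. The URG, *COL4A4*, passed the filter only through its mocetinostat-treated samples. The p-values measure the spread between these 3 samples per condition, and in bulk RNA a change in the share of cells that express a gene and a change in the RNA per cell cannot be told apart.

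**Figure D1:**
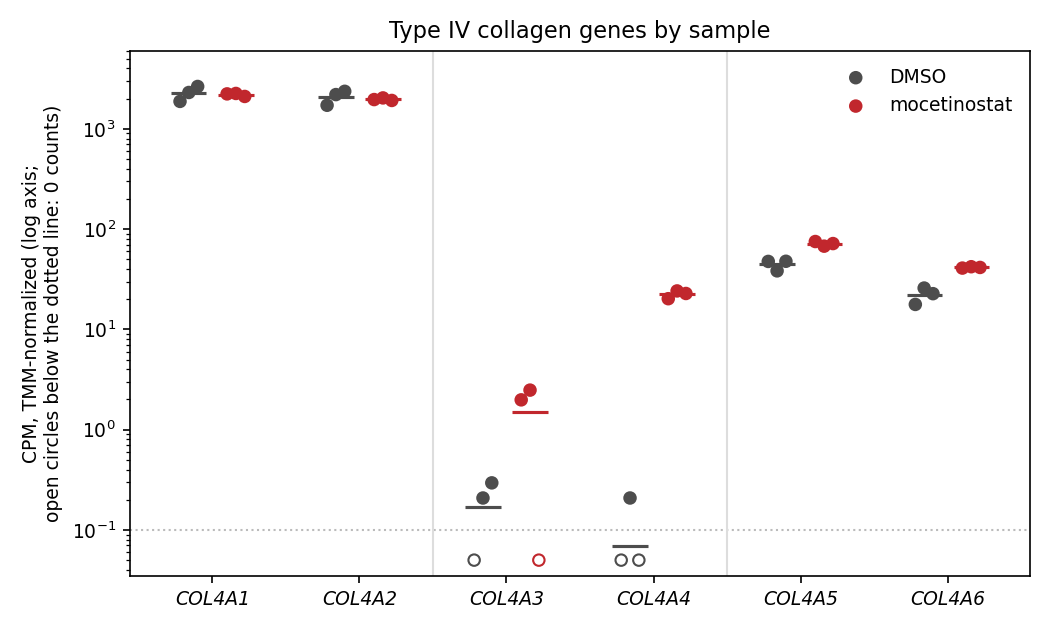
Level in counts per 1e6 reads (CPM, with edgeR's TMM factors, log axis) of the 6 type IV collagen genes in the 3 DMSO-treated and 3 mocetinostat-treated samples, with 1 point per sample, open points for samples at 0, and a bar at the group mean. The conditions overlap for *COL4A1* and *COL4A2* and are apart for *COL4A4*, *COL4A5*, and *COL4A6*, and *COL4A3* has samples at 0 in both. The share of all genes tested whose conditions are apart is not given here. For scale, 32.9% of them were higher and 31.4% lower at an adjusted p under 0.05 from edgeR.

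Depth differed between the samples, with total counts from 4873426 to 11031132 with DMSO and from 1619344 to 5089542 with mocetinostat, and the coefficient of variation between replicates was 9.30%. The label of the line was set beside cell type markers. Of 13 chondrocyte markers, 1 (*CNMD*) was at 0 in all samples, and their summed level was 117 to 142 CPM with DMSO and 264 to 305 CPM with mocetinostat. Most of the sum with DMSO came from *SOX9*, a transcription factor of cartilage, at 106 ± 13.6 CPM (SD, n = 3), whereas *COL2A1*, the type II collagen gene, was at 2.20 CPM and *ACAN*, the aggrecan gene, at 4.72 CPM, so that the defining matrix genes of the label were low. The summed level of 5 endothelial markers was 5.61 to 8.12 CPM with DMSO and 41.5 to 46.8 CPM with mocetinostat, and that of 4 epithelial markers was 0.208 to 0.884 CPM and 22.0 to 34.1 CPM. The sums were also higher for podocyte markers (244 to 293 CPM against 526 to 557 CPM), smooth muscle markers (2.80 to 3.96 CPM against 8.52 to 13.6 CPM), and macrophage markers (1.33 to 2.50 CPM against 4.76 to 11.2 CPM). All 6 marker lists thus had higher sums in the mocetinostat-treated samples, as *COL4A4* did in level, and their part in the result was not tested. Single members differed, since *CDH5*, the endothelial cadherin gene, had a log2FC of 0.12 and did not pass the test. Among the macrophage markers only *CD14* was higher. *CD68* had 1, 2, and 1 reads with DMSO and 0 in each mocetinostat-treated sample, and *PTPRC* was at 0.685 CPM with DMSO and 0.611 CPM with mocetinostat. *ACTA2*, a smooth muscle marker, had a log2FC of -0.15 and did not pass the test. *NPHS1*, the nephrin gene of kidney podocytes, had 1, 0, and 1 reads against 9, 1, and 5 after mocetinostat treatment.

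*COL4A1* (ENSG00000187498, chr13:110148963-110307157 of GRCh38, minus strand) encodes a chain of the ubiquitous network. In this and the next genes, values are listed from replicate 1 to replicate 3. The DMSO-treated samples gave 20734, 11052, and 17927 reads, and the mocetinostat-treated samples gave 11242, 3632, and 5070. In CPM (counts per 1e6 reads, with TMM factors) these were 1876, 2301, and 2642 with DMSO and 2229, 2251, and 2101 with mocetinostat. All mocetinostat-treated samples lay inside the range of the DMSO-treated samples, whose lowest value was that of replicate 1. The mean was 2273 ± 384 CPM with DMSO and 2194 ± 80.8 CPM with mocetinostat (SD, n = 3), and the log2FC was -0.05 (SE 0.07, 95% interval -0.19 to 0.09, adjusted p = 0.529 from edgeR). By CPM, *COL4A1* was the 24th most abundant gene with DMSO and the 22nd with mocetinostat.

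*COL4A2* (ENSG00000134871, chr13:110305812-110513209, plus strand), which encodes the partner chain of the same network, held 1716, 2193, and 2364 CPM with DMSO and 1956, 2031, and 1917 CPM with mocetinostat. As for its partner, DMSO replicate 1 was lowest and the conditions overlapped. The mean was 2091 ± 336 CPM with DMSO and 1968 ± 58.3 CPM with mocetinostat (SD, n = 3), with a log2FC of -0.09 (SE 0.07, 95% interval -0.22 to 0.05, adjusted p = 0.267 from edgeR), and *COL4A2* was the 26th and the 27th most abundant gene. Both intervals exclude a change of the size that defines a URG or DRG. The 2 genes together took 0.360% to 0.490% of all counts with DMSO and 0.401% to 0.427% with mocetinostat. The values of this pair depended on the scaling and on 1 library: without DMSO replicate 1 the log2FCs were -0.19 and -0.23 with adjusted p of 0.000123 and 4.44e-06, without an expression filter they were -0.30 and -0.34, and with each library scaled to *GAPDH* they turned to 0.47 and 0.43. Over all alternatives the adjusted p from edgeR or DESeq2 ranged from 1.08e-05 to 1 for *COL4A1* and from 8.46e-07 to 1 for *COL4A2*.

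*GAPDH*, a glycolytic enzyme often used for scaling, itself fell by 0.53 on the log2 scale (SE 0.06, adjusted p = 2.58e-12 from edgeR), and scaling to it moved the median log2FC of all genes by 0.54. Leaving out the expression filter moved the median of the 13966 genes by -0.25.

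The within-pair ratio does not depend on scaling, because both genes are read in the same library. The ratio of *COL4A1* to *COL4A2* counts was 1.09, 1.05, and 1.12 in the DMSO-treated samples and 1.14, 1.11, and 1.10 in the mocetinostat-treated samples. The ratio thus stayed between 1.05 and 1.14 over the 6 samples although their totals differed widely. On the log2 scale the mean ratio was 0.12 ± 0.05 with DMSO and 0.16 ± 0.03 with mocetinostat (SD, n = 3), a difference of 0.04 (exact two-sided permutation p = 0.4). With 3 samples against 3, such a test cannot give a p below 0.1. The difference between the fitted log2FCs of the partners was 0.04 (SE 0.10, with both estimates taken as independent).

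**Figure D2:**
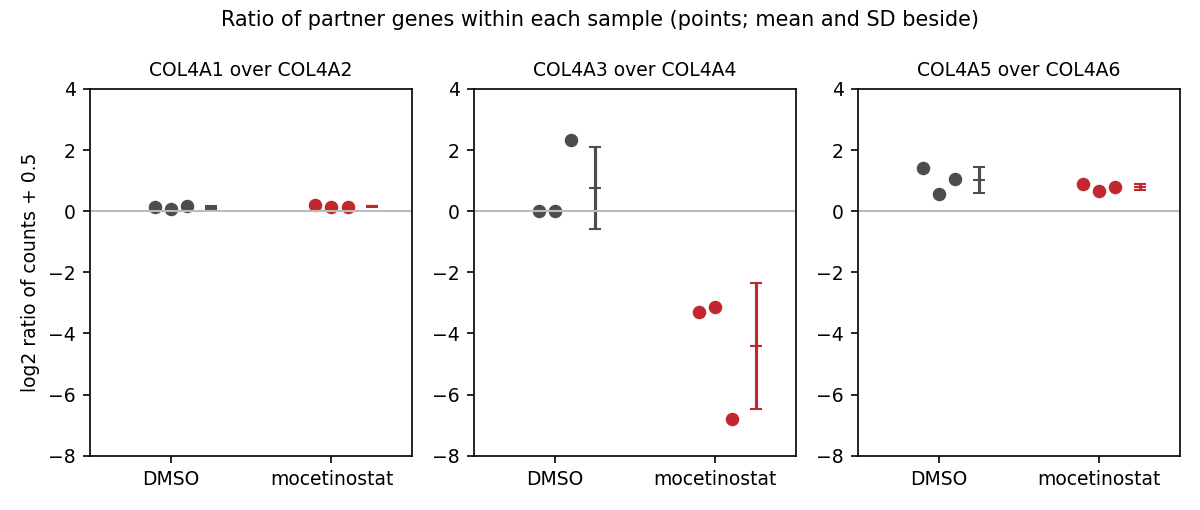
Log2 ratio of the counts of the first to the second gene of each pair in each sample (0.5 added to each count), with the mean and SD (n = 3) beside the points. The *COL4A1* to *COL4A2* ratio stays near 0 in all 6 samples, the *COL4A5* to *COL4A6* ratio overlaps between conditions, and the *COL4A3* to *COL4A4* ratio lies below -3 in the mocetinostat-treated samples only.

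*COL4A4* (ENSG00000081052, chr2:227002714-227164453, minus strand) encodes a chain of the glomerular network. The DMSO-treated samples gave 0, 1, and 0 reads, against 102, 39, and 55 reads after mocetinostat treatment. The levels were 0, 0.208, and 0 CPM with DMSO and 20.2, 24.2, and 22.8 CPM with mocetinostat. The conditions were far apart, and the 3 mocetinostat-treated samples differed little from each other, with a mean of 22.4 ± 2.00 CPM (SD, n = 3). *COL4A4* was the URG among the type IV collagen genes (adjusted p = 1.04e-22 from edgeR). It passed the expression filter only through the mocetinostat-treated samples, so the filter fixed the direction of this call and its p adds no separate support. Its fitted log2FC of 8.34 (SE 0.54) rests on 1 read with DMSO and on the prior count of the fit, and it was 9.87 without DMSO replicate 2, the sample with that read, 7.55 without DMSO replicate 1, the deepest library, and 6.42 once every library was thinned to the depth of the smallest. Over the summed counts, 196 with mocetinostat against 1 with DMSO, the ratio of the levels was 489, with a 95% interval from 86.8 to 19421 that covers counting error only. *COL4A4* passed both thresholds under every alternative that tested it, and the requirement of 10 counts in every sample removed it.

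*COL4A3* (ENSG00000169031, chr2:227164624-227314792, plus strand), which encodes the chain that carries the Goodpasture antigen, gave 0, 1, and 2 reads in the DMSO-treated samples, against 10, 4, and 0 after mocetinostat treatment. Mocetinostat replicates 1 and 2 were at 1.98 and 2.48 CPM and above all DMSO-treated samples, whose highest value was 0.295 CPM, whereas mocetinostat replicate 3 held no read. The gene was removed by the expression filter. Without the filter its log2FC was 2.92 (95% interval 0.57 to 5.26, adjusted p = 0.0587 from edgeR), and the adjusted p in the settings that tested it ranged from 0.000626 to 0.0797. It passed both thresholds in the fit without DMSO replicate 2, with a log2FC of 3.42, and in the fit without mocetinostat replicate 3, with 3.77. *COL4A3* entered both fits only through mocetinostat replicates 1 and 2, so the filter fixed the direction and these passes add no separate support. The sample left out of the latter fit was the mocetinostat-treated sample without a read. The summed counts, 14 against 3, gave a ratio of 11.6 (95% interval 3.25 to 63.2, counting error only). A part of the *COL4A3* exons, 6.82% of their bases, overlaps the noncoding gene *MFF-DT* on the opposite strand, which had 12, 2, and 6 reads against 3, 1, and 7 in the same order, and whether the counting used strand is not given in the sources used here.

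In the mocetinostat-treated samples, *COL4A3* gave 14 of the 210 reads of the pair, a share of 6.67% (exact Clopper-Pearson 95% interval 3.69% to 10.9%). The shares were 8.93% and 9.30% in replicates 1 and 2, and 0 of 55 reads in replicate 3, which allows up to 6.49% by the same interval. In the DMSO-treated samples *COL4A3* gave 3 of the 4 reads of the pair, a share of 75% with an interval from 19.4% to 99.4%, which lies above that after mocetinostat treatment. Both intervals cover counting error only. The log2 ratio of *COL4A3* to *COL4A4* was 0.00, 0.00, and 2.32 with DMSO and -3.29, -3.13, and -6.79 with mocetinostat, a difference of -5.18 without overlap (exact two-sided permutation p = 0.1, the smallest possible), and the DMSO values are set largely by the 0.5 added to each count. In the fit without a filter, the log2FC of *COL4A4* exceeded that of *COL4A3* by 5.20 (SE 1.32). The reads of the pair after mocetinostat treatment thus came mostly from 1 partner, although the starts lie 419 bases apart.

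*COL4A5* (ENSG00000188153, chrX:108439838-108697545, plus strand), whose chain is shared by the glomerular and the smooth muscle networks and whose mutation causes X-linked Alport syndrome, gave 526, 184, and 324 reads in the DMSO-treated samples, against 379, 109, and 173 in the less deeply sequenced mocetinostat-treated samples. In CPM these were 47.6, 38.3, and 47.7 with DMSO and 75.1, 67.5, and 71.7 with mocetinostat. All mocetinostat-treated samples lay above all DMSO-treated samples. The mean rose from 44.6 ± 5.40 to 71.5 ± 3.80 CPM (SD, n = 3), a 1.6-fold change with a log2 value of 0.68 (SE 0.13, 95% interval 0.43 to 0.93, adjusted p = 3.09e-06 from edgeR), which is under the fold that defines a URG.

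*COL4A6* (ENSG00000197565, chrX:108155607-108439497, minus strand), whose chain joins that of *COL4A5* in the smooth muscle network, gave 196, 124, and 154 reads in the DMSO-treated samples, against 206, 68, and 100 after mocetinostat treatment. In CPM these were 17.7, 25.8, and 22.7 with DMSO and 40.8, 42.1, and 41.4 with mocetinostat, again without overlap. The mean rose from 22.1 ± 4.08 to 41.5 ± 0.651 CPM (SD, n = 3), a 1.91-fold change with a log2 value of 0.93 (SE 0.16, 95% interval 0.61 to 1.26, adjusted p = 9.50e-07 from edgeR). Its upper bound lies past the fold that defines a URG, and *COL4A6* was called without DMSO replicate 2, at a log2FC of 1.01, and with a minimum of 10 counts in every sample, also at 1.01. Both genes of this pair were also called under *GAPDH* scaling, at 1.22 and 1.46, and their log2FCs were positive under every scaling that was run.

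The ratio of *COL4A5* to *COL4A6* counts was 2.68, 1.48, and 2.1 with DMSO and 1.84, 1.6, and 1.73 with mocetinostat. The DMSO-treated samples spread on both sides of the mocetinostat-treated ones. The log2 ratio changed by -0.24 (exact two-sided permutation p = 0.5), and the fitted log2FCs of the partners differed by -0.25 (SE 0.21). In all, 3 within-pair ratios were compared.

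To compare levels between the genes, CPM were divided by the length of the canonical transcript in kb. On this scale the mean level was 348 ± 58.7 for *COL4A1* and 324 ± 52.1 for *COL4A2* with DMSO, and 335 ± 12.4 and 305 ± 9.04 with mocetinostat (SD, n = 3). The group means of these neighbours lay within their SDs with DMSO, but within each of the 6 libraries *COL4A1* was above *COL4A2*. *COL4A5* followed at 6.82 ± 0.827 with DMSO and 10.9 ± 0.582 with mocetinostat, and *COL4A6* at 3.30 ± 0.610 and 6.20 ± 0.0974. *COL4A4* was at 2.24 ± 0.201 with mocetinostat, below *COL4A6* and above *COL4A3*, which was at 0.185 ± 0.163. With DMSO, *COL4A3* and *COL4A4* were at 0.0209 ± 0.0188 and 0.00695 ± 0.0120 and did not differ beyond their spread. With the length of all annotated exons instead, the levels of *COL4A1* and *COL4A2* with mocetinostat were 149.6 and 102 and that of *COL4A4* was 1.89, and the order of the genes after mocetinostat treatment did not change.

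Of all type IV collagen reads, *COL4A1* and *COL4A2* held 98.2%, 98.6%, and 98.6% in the DMSO-treated samples, against 96.8%, 96.9%, and 96.7% in the mocetinostat-treated samples. *COL4A5* and *COL4A6* together held 1.39% to 1.79% with DMSO and 2.48% to 2.72% with mocetinostat. *COL4A3* and *COL4A4* held at most 0.00914% with DMSO and 0.514% to 0.603% with mocetinostat. The conditions did not overlap for any pair, but the shares are parts of the same total, so a rise in some lowers the others. They are therefore not separate results, and in CPM the conditions overlapped for *COL4A1* and *COL4A2*. The ubiquitous network's chains made up nearly all type IV collagen reads in both conditions.

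Genes read from a shared region were then described across the genome. RefSeq starts of protein-coding genes on opposite strands lay head to head within 1000 bases in 931 pairs, of which both partners were tested in 720. The absolute difference between the partners' log2FCs had a median of 0.52 (quartiles 0.27 and 0.94) and was over 1 in 167 pairs (23.2%). The difference of 0.04 between *COL4A1* and *COL4A2* was near the low end, with 15 of the 720 pairs (2.08%) below it, and that of 0.25 between *COL4A5* and *COL4A6* was exceeded by most pairs, with 168 (23.3%) below it. Such differences grow with the error of each estimate, which is small for genes as abundant as *COL4A1* and *COL4A2*. Shared control was not tested. Of the 1440 partners in these pairs 75 (5.21%) were URGs, beside 20.2% of all genes tested. Of the 70 pairs with at least 1 URG, both partners were URGs in 5, a count to be read against that low share. *COL4A3* and *COL4A4* are not in this count, because *COL4A3* was not tested. Across the 720 pairs the log2FCs of the partners had a Pearson r of 0.348, given as a description over genes that share libraries.

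**Figure D3:**
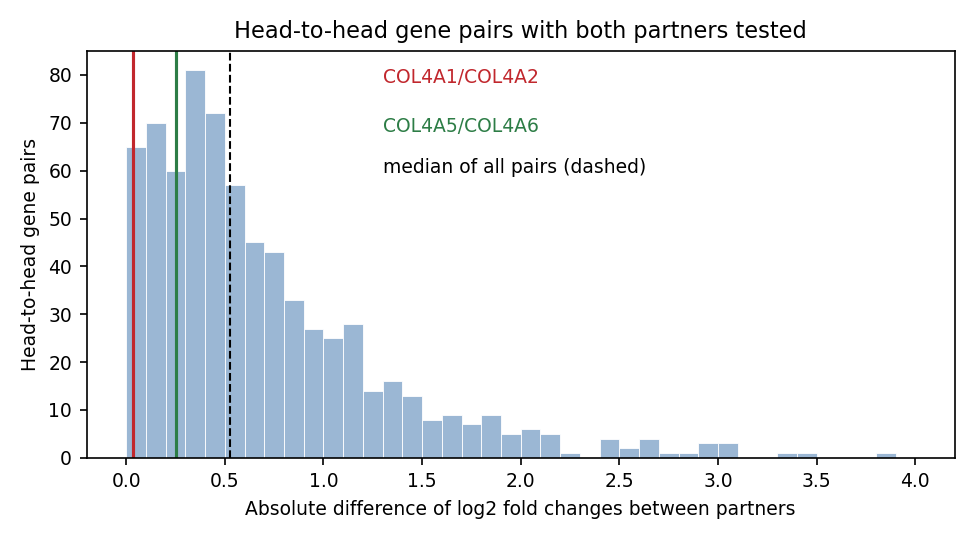
Absolute difference between the log2FCs of head-to-head partners in 720 gene pairs (x axis) as a histogram of the number of pairs (y axis), with lines at the values of *COL4A1* and *COL4A2* (0.04), *COL4A5* and *COL4A6* (0.25), and the median of all pairs (0.52). Both type IV collagen pairs lie left of the median.

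Protein-coding genes with any part within 500 kb of the 3 loci numbered 30, of which 15 were tested. Of these, 2 were URGs and 1 was a DRG, 7 had an adjusted p under 0.05 and a higher level and 4 a lower one, and the median log2FC was 0.20. Among all genes tested, 20.2% were URGs and 8.18% DRGs, and 32.9% were higher and 31.4% lower at an adjusted p under 0.05. Distances run to the outer ends of each locus and not to the shared starts, which lie farther inside. Near *COL4A3* and *COL4A4*, the closest genes tested on each side were *RHBDD1*, a rhomboid protease gene 3.50 kb from the end of *COL4A4*, with 17.7 ± 1.24 CPM with DMSO and 18.1 ± 4.58 CPM with mocetinostat (SD, n = 3), and *MFF*, a mitochondrial fission factor gene 10.4 kb from the end of *COL4A3*, with 72.1 ± 5.59 and 74.5 ± 2.44 CPM. Their log2FCs of 0.11 (SE 0.20) and 0.05 (SE 0.12) did not pass the test (adjusted p = 0.661 and 0.730 from edgeR). *COL4A4* between them had 0, 1, and 0 reads with DMSO and 102, 39, and 55 with mocetinostat, and it entered the test only through the mocetinostat-treated samples.

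The URG near this locus was *SLC19A3*, a thiamine transporter gene 369 kb away, which had 11, 6, and 12 reads in the DMSO-treated samples, against 73, 8, and 27, a log2FC of 3.06 (SE 0.41). *SLC19A3* passed the expression filter only through the mocetinostat-treated samples, so the filter fixed the direction of this call. The URG near *COL4A1* and *COL4A2* was *IRS2*, an insulin receptor substrate gene 362 kb away, which rose from 37.6 ± 1.02 to 100.2 ± 10.2 CPM (SD, n = 3), a log2FC of 1.44 (SE 0.12). The DRG near *COL4A5* and *COL4A6* was *MID2*, a ubiquitin ligase gene 224 kb away, with a log2FC of -1.03 (SE 0.32), and it was not called without DMSO replicate 1. *ATG4A*, an autophagy protease gene 0.936 kb from the end of *COL4A6*, had a log2FC of 0.56 (adjusted p = 0.0376 from edgeR).

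**Figure D4:**
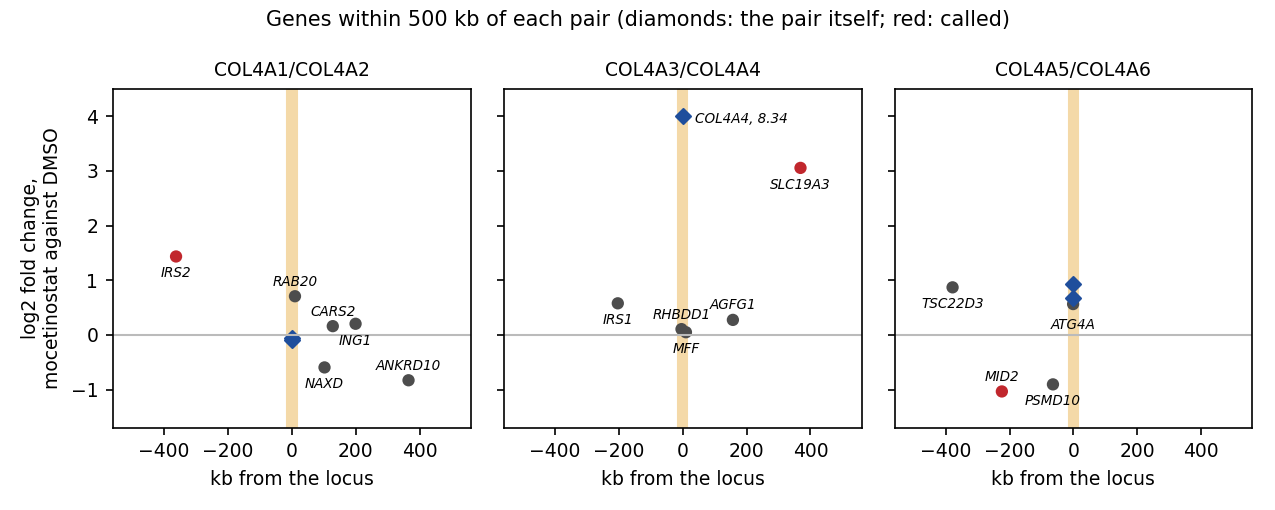
Log2 fold change (mocetinostat against DMSO, y axis) of the tested protein-coding genes within 500 kb of each pair, by distance from the locus in kb (x axis), with the type IV collagen genes as diamonds at 0 and red points for URGs and DRGs. *COL4A4*, at 8.34, is drawn at 4 with its value beside it, and *RHBDD1* and *MFF* lie near 0.

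Lists of genes that act with type IV collagen were read in the same fit, by role. The counts of every list below are to be read beside the shares over all genes tested. These were 20.2% URGs and 8.18% DRGs, with 32.9% higher and 31.4% lower at an adjusted p under 0.05. Basement membrane partners, the laminins, nidogens, and proteoglycans that join the network, had 7 URGs and no DRG among 18 tested. These URGs include *LAMA2*, named after its values were seen, which passed the expression filter only through the mocetinostat-treated samples. In this list 15 genes had an adjusted p under 0.05 and a higher level and 1 a lower level, and the median log2FC was 0.75. *LAMA3*, a laminin chain of epithelial basement membranes, rose most, with 73, 29, and 37 reads in the DMSO-treated samples, against 193, 64, and 84, from 6.03 ± 0.576 to 37.6 ± 2.50 CPM (SD, n = 3) and a log2FC of 2.62 (SE 0.21). *LAMB2*, a laminin chain of glomerular and synaptic basement membranes, fell by 0.43 on the log2 scale (adjusted p = 7.17e-05 from edgeR). *SPARC*, a secreted collagen-binding glycoprotein and the most abundant of the list, had a log2FC of 0.20 (adjusted p = 0.00789 from edgeR).

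Genes of folding, modification, and export of procollagen had 2 URGs and 1 DRG among 18 of 19 tested, with 3 higher and 6 lower at an adjusted p under 0.05 and a median of 0.04. *SERPINH1*, which encodes the collagen chaperone HSP47, fell from 209.9 ± 6.17 to 32.5 ± 3.29 CPM (SD, n = 3), a log2FC of -2.66 (SE 0.11, adjusted p = 1.00e-32 from edgeR). All 3 mocetinostat-treated samples were far below the DMSO-treated samples, with 183, 50, and 73 reads against 2242, 1027, and 1446. *P4HA3*, a catalytic subunit of prolyl hydroxylase, rose by 1.87, and *P4HB*, its shared subunit and the most abundant gene of the list, had a log2FC of -0.00 (adjusted p = 0.991 from edgeR). *P3H2*, the prolyl hydroxylase known to act on type IV collagen, was named after its values were seen and rose from 69.8 ± 6.40 to 156 ± 9.27 CPM (SD, n = 3), a log2FC of 1.17.

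Of 6 cross-linking genes, all tested, 2 were URGs and none was a DRG, 5 were higher at an adjusted p under 0.05, and the median was 0.80. *LOXL4*, a lysyl oxidase, had the highest log2FC at 2.65 from 6, 5, and 6 reads in the DMSO-treated samples, against 19, 15, and 8. *LOXL4* passed the expression filter only through the mocetinostat-treated samples, so the filter fixed the direction of its call. *LOXL2*, the lysyl oxidase known to act on type IV collagen and the most abundant of the list, rose from 337 ± 33.4 to 634 ± 32.0 CPM (SD, n = 3), with a log2FC of 0.91. *LOXL3* had the lowest value, -0.24 (adjusted p = 0.309 from edgeR). *PXDN*, the peroxidasin that forms the sulfilimine bond between type IV collagen molecules, was named after its values were seen and had a log2FC of 0.69.

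Of 11 receptor genes, 10 were tested, with 4 URGs and 1 DRG, 4 higher and 3 lower at an adjusted p under 0.05, and a median of 0.14. The number of URGs was 3 under DESeq2, without a filter, with a minimum of 10 counts in every sample, under glmTreat, in thinned libraries, with the replicate block, and with any 1 sample left out. The URG with the highest adjusted p, named after its values were seen, was *ITGA10*, a collagen-binding integrin subunit of chondrocytes, at 1.48 ± 0.424 CPM with DMSO and 3.47 ± 0.433 CPM with mocetinostat (SD, n = 3; log2FC 1.19, adjusted p = 0.0376 from edgeR). *ITGA10* passed the expression filter only through the mocetinostat-treated samples, so the filter fixed the direction of its call. *ITGA1*, the integrin subunit that binds type IV collagen, rose from 7.76 ± 1.14 to 44.4 ± 6.79 CPM (SD, n = 3), a log2FC of 2.47 (SE 0.19, adjusted p = 6.02e-19 from edgeR). Its partner subunit *ITGB1*, the most abundant of the list, had a log2FC of 0.07 (adjusted p = 0.440 from edgeR). *DDR2*, a collagen receptor kinase, had the lowest value, -1.02, and was not called without DMSO replicate 1 or without mocetinostat replicate 1.

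Of 8 genes of degradation, all tested, 5 were URGs and none was a DRG, 7 were higher and 1 lower at an adjusted p under 0.05, and the median was 1.42. *MMP10*, a stromelysin, had 2, 0, and 1 reads in the DMSO-treated samples, against 15, 6, and 9, so that its log2FC of 4.46 depends on the prior count. *MMP10* passed the expression filter only through the mocetinostat-treated samples, so the filter fixed the direction of its call. *MMP14*, a membrane-bound metalloproteinase, fell by 0.90 on the log2 scale, and *TIMP2*, an inhibitor and the most abundant of the list, rose by 0.60.

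**Figure D5:**
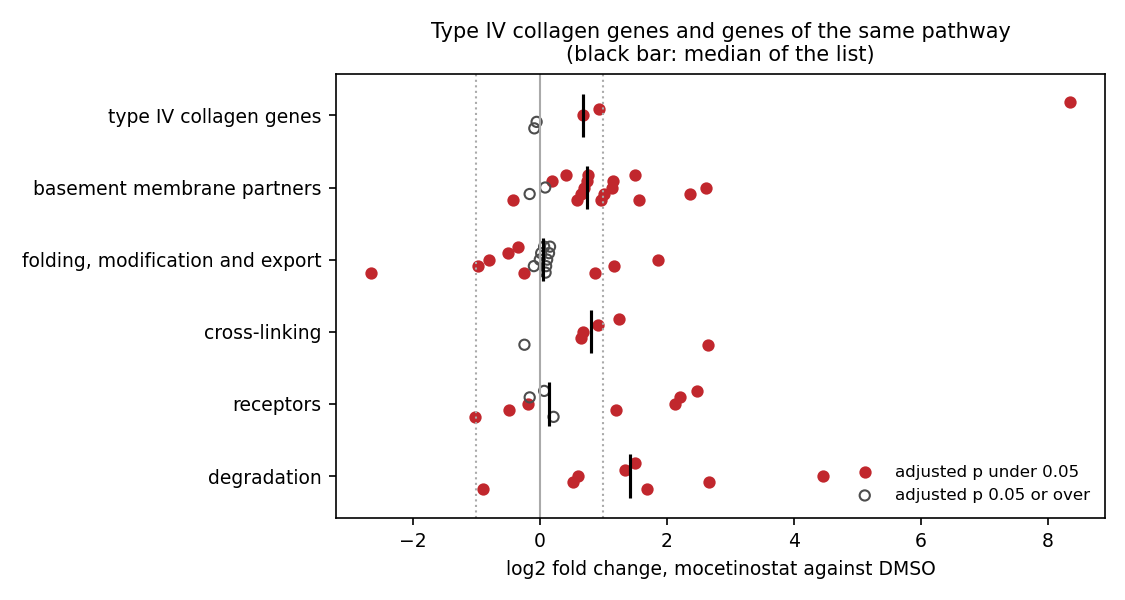
Log2 fold changes (mocetinostat against DMSO) of the tested genes of the 5 lists and of the type IV collagen genes, with 1 point per gene, filled where the adjusted p was under 0.05, and a bar at each list's median. Medians run from 0.04 for folding, modification, and export to 1.42 for degradation, and *SERPINH1* lies lowest at -2.66.

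The genes whose profiles were most like those of the type IV collagen genes were found by the Euclidean distance between log2 CPM profiles over the 6 samples, each centred on its own mean. Among all genes tested, *COL4A2* was the 4th nearest to *COL4A1* (distance 0.0888), after genes that included *DCTN1* (0.0531) and *PPP1R18* (0.0734), and *COL4A1* was the 3rd nearest to *COL4A2*, after *CHMP4B* and *MAP7D1*. For *COL4A4* the nearest were *CNTNAP2* (0.434) and *MAP2* (0.510). For *COL4A5* the nearest were *TM2D2* (0.0799) and *CCDC134* (0.117), and its partner *COL4A6* was in place 2003. For *COL4A6* they were *MELTF* (0.141) and *MBOAT1* (0.158), and *COL4A5* was in place 1222. The partners on chromosome 13 were thus close to each other's nearest profiles, and those on chromosome X were not. *COL4A6* had 68 to 206 reads per sample and *COL4A2* had 3278 to 18968, so counting noise adds more to the distance on chromosome X. The fitted log2FCs of *COL4A5* and *COL4A6* differed by -0.25 (SE 0.21), and separate regulation was not tested.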

How the data were processed

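RNA-Seq was analyzed in 3 DMSO-treated and 3 mocetinostat-treated samples of TC28a2 cells. The authors deposited 1 table of whole raw counts of single reads per gene, without normalization. According to the study's methods, STAR (build GRCh38) and featureCounts gave the counts, after adapter and ribosomal RNA removal (versions 2.6.1d of STAR and 1.6.4 of featureCounts in the submitters' processing notes). The handling of strand and of reads that map to several genes is not given in the sources used here. Groups came from the sample labels, and columns were matched by name.

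edgeR 4.0.16 in R 4.3.3 computed TMM factors, kept genes with filterByExpr (minimum count 10), and tested treatment with its quasi-likelihood test, as a single-factor model. CPM used the TMM factors. The study's own tool, DESeq2 (1.42.0 here), was an alternative, as were other scalings and filters, glmTreat, thinning to the smallest total, a replicate block, and each sample left out in turn. Within-pair ratios were compared by exact permutation with SciPy 1.17.1. Total counts ranged from 1619344 to 11031132, and intervals of summed-count ratios and of shares cover counting error only, whereas those of log2FCs come from edgeR and include the spread between replicates. The chi-square statistic per degree of freedom between replicates was 1.96 to 7.19, so each sample counted as 1 replicate. Positions, lengths, and overlaps came from GENCODE release 44, which holds 99.5% of the table's genes, and starts and promoters from RefSeq, which matched all 6 genes. The fits were tested on simulated counts.

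The members and lists were chosen with earlier results of these data known. Named genes were the 6 type IV collagen genes, the highest, the lowest, and the most abundant gene of each list, called neighbours, *GAPDH*, and the 2 nearest profiles of each gene. Neighbours that were not called and single marker genes were named after their values were seen. Protein sequences were not used here.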

Additional observations from a re-analysis of the deposited data

How the results depend on the processing

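The direction of *COL4A4*, *COL4A5*, and *COL4A6* and an adjusted p under 0.05 held in every setting that tested them, except that glmTreat, which tests against a log2FC of 1, gave *COL4A5* and *COL4A6* an adjusted p of 1. *COL4A1*, which did not pass the test, changed sign under *GAPDH* scaling (0.47), with a minimum of 10 counts in every sample (0.0271), in the thinned libraries (0.0296), and without DMSO replicate 3 (0.0487), and *COL4A2* changed sign under *GAPDH* scaling (0.43). Over the 6 fits that each lacked 1 sample, the log2FC of *COL4A1* ranged from -0.192 to 0.0487. The number of type IV collagen URGs was 1, with 3 under *GAPDH* scaling and 1 to 3 with samples left out.

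Counts of URGs and DRGs moved more, and the causes were not tested. *GAPDH* scaling gave 4425 URGs and 284 DRGs (94.0% of calls upregulated, against 71.2%), with 13 URGs among basement membrane partners, 5 in cross-linking, 6 among neighbours, and 0 DRGs among receptors and neighbours. No filter gave 3201 URGs and 2120 DRGs (60.2% upregulated), with 4 basement membrane URGs, 1 URG and 3 DRGs in folding, 1 cross-linking URG, 1 degradation DRG, and 4 URGs and 3 DRGs among neighbours. A minimum of 10 counts in every sample tested fewer genes and gave 1620 URGs and 704 DRGs, with 1 cross-linking, 3 degradation, and 1 neighbouring URG and 0 DRGs among receptors and neighbours. glmTreat gave 2069 URGs and 465 DRGs (81.6% upregulated), with 3 basement membrane, 1 folding, and 1 cross-linking URG and 0 DRGs among receptors and neighbours. DESeq2 called 2 folding DRGs and 4 neighbouring URGs, and the thinned libraries gave 0 receptor DRGs. With samples left out, URGs ranged from 5 to 8 among basement membrane partners, and DRGs ranged from 1 to 2 in folding, 0 to 1 among receptors, 0 to 1 in degradation, and 0 to 2 among neighbours.

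Same-numbered samples did not deviate together (correlations 0.01, 0.01, and -0.02). These values cannot show whether the samples were run in pairs, which the labels do not state. The replicate block gave 2798 URGs, 1133 DRGs, and 1 type IV collagen URG, with log2FCs of 8.32 for *COL4A4* and 0.95 for *COL4A6*. Depth limits the folds of *COL4A3* and *COL4A4*, which rest on 3 and 1 summed counts with DMSO. *COL4A4* entered the filtered fits only through the mocetinostat-treated samples, as did *COL4A3* in the filtered fits that kept it.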
